A study of Mus musculus with 18 samples.

Results

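Cells that had lost Ezh2 were compared with control cells on 4 of the 18 Affymetrix Mouse Gene ST arrays of the series, namely 2 arrays labelled Ezh2 -/- (Ezh2 null) and 2 labelled control, all from the rescue experiment. The members of the comparison were chosen by these labels alone, and every one of 18820 genes was tested. Both groups were clone C2, a male line of mouse embryonic fibroblasts transformed with c-Myc and grown out from a single cell. In this line Ezh2 carries 1 conditional and 1 deleted allele, and a Cre recombinase fused to the estrogen receptor (CreERT2), expressed from the ROSA26 locus, removes the conditional allele when tamoxifen is given. The Ezh2 null cells had undergone that deletion, whereas the control cells are labelled wild type for Ezh2 and, going by the methods of the study, still held the conditional allele. Tamoxifen and Cre activity come with the deletion, so between these groups their part cannot be told apart from that of Ezh2 loss. Because both groups descend from a single clone, differences between clones were not sampled. The study describes the replicates of this experiment as biological. The p-values reflect the spread between such replicates of a single clone, pooled over the 5 groups of the experiment. The rescue experiment held 6 further arrays, 2 each of cells given Ezh1 before the deletion (Ezh1 pre-rescue), cells given Ezh2 before the deletion (Ezh2 pre-rescue) and cells given Ezh2 back after it (Ezh2 post-rescue). These 6 arrays entered the fit to estimate the spread.

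Ezh2 is the main catalytic subunit of the Polycomb repressive complex PRC2, which methylates histone H3 on lysine 27 (H3K27me3) at genes kept silent, many of them developmental regulators with CpG-rich promoters. Ezh1 is its less active paralogue, and Eed and Suz12 are core subunits that either enzyme needs. In fibroblasts PRC2 is known to hold silent the Ink4a/Arf locus (Cdkn2a), the Hox genes that do not belong to the position of the cell in the body, and regulators of other lineages. The comparison asked which genes differed between the Ezh2 null and control cells.

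Values are log2 intensities from RMA, a method that corrects background, normalizes arrays and summarizes probes, so a difference of 1 is a 2-fold change. The array median lay between 6.16 and 6.27 over the 10 arrays and the array standard deviation between 2.29 and 2.38. Control replicate 1 correlated with control replicate 2 at r = 0.9944 across genes, and Ezh2 null replicate 1 with replicate 2 at r = 0.9948. The difference between replicates had a standard deviation over genes of 0.23 in Ezh2 null cells and 0.247 in control cells, against 0.152 to 0.173 in the 3 rescued groups, so the pairs compared here were the noisiest of the experiment. The tests pool the spread over all groups, so their p-values may be too small for this comparison. Some fibroblast genes were high in both groups. Vim (vimentin) read 12.91 and 12.95 in Ezh2 null cells and 12.90 and 13.08 in control cells. Sparc, a matrix glycoprotein, read 12.45 and 12.46 in Ezh2 null cells and 12.33 and 12.67 in control cells. Others were not, for example Lum at 5.86 and 5.79 in Ezh2 null cells and 6.97 and 6.69 in control cells. The mean level of the markers of epithelium was 5.24 to 5.34 in Ezh2 null cells and 5.30 to 5.37 in control cells, and that of blood cells 5.15 to 5.30 in Ezh2 null cells and 5.21 to 5.30 in control cells, which is below the array median.

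The probe set for Ezh2 gave no check of the deletion. Ezh2 read 10.46 and 10.48 in Ezh2 null cells and 10.36 and 10.56 in control cells, a difference of 0.01 ± 0.17 (limma, adjusted p = 0.99), and its sign turned with the scaling and with the arrays used. The deletion is therefore taken from the labels. Among the other subunits of PRC2, Phf19, a Polycomb-like protein that recruits the complex, was the 1 of 13 measured that passed the test. It stood at 7.56 and 7.54 in Ezh2 null cells and 6.35 and 6.30 in control cells, a rise of 1.22 ± 0.086 (limma, adjusted p = 0.00143). Ezh1 stood at 9.51 and 9.19 in Ezh2 null cells and 9.50 and 9.82 in control cells (adjusted p = 0.398 in limma), Eed at 9.0 and 8.97 in Ezh2 null cells and 8.95 and 8.74 in control cells, and Suz12 at 10.65 and 10.54 in Ezh2 null cells and 10.59 and 10.40 in control cells, none of them past the test. No measured subunit of PRC1, the partner complex that binds H3K27me3, passed (0 of 19, limma, with a median difference of 0.10). In the same test 1.2% of all genes rose and 0.76% fell. The median of the PRC1 subunits ran from 0.005 to 0.198 in fits without 1 array.

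A gene is called here where it differed at least 2-fold with an adjusted p under 0.05. By this rule 119 genes were higher in Ezh2 null cells, 0.632% of those tested, and 40 were lower, 0.213%. Without the requirement on fold, 226 genes rose (1.2%) and 143 fell (0.76%). Both shares are the background for the list counts given below. With each array centred on its median 185 genes rose and 218 fell, so the balance of directions at small changes depends on the scaling. The changes upwards were the larger ones: 26 called genes were at least 4-fold higher and 9 at least 8-fold higher, whereas 8 were at least 4-fold lower and 1 at least 8-fold lower. In all 159 called genes the 2 Ezh2 null arrays lay on the same side of the 2 control arrays with no overlap. Of all genes, 16.4% were separated in this way upwards and 26.6% downwards, so separation alone says little here. The median difference over all genes was −0.03.

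Most of the genes called higher lay below the median of all genes in control cells, a level that also enters the difference itself. The median control level of the 119 higher genes was 5.95, against 6.57 for all genes, and 85 of the 119 lay below the median of all genes, while in Ezh2 null cells their median was 7.69. The 40 lower genes had a median of 7.78 in Ezh2 null cells and 9.53 in control cells, and 0 of the 40 lay below the median of all genes in control cells. RMA values have a floor, and a gene near it cannot be seen to fall, which bears on the second count.

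**Figure D1:**
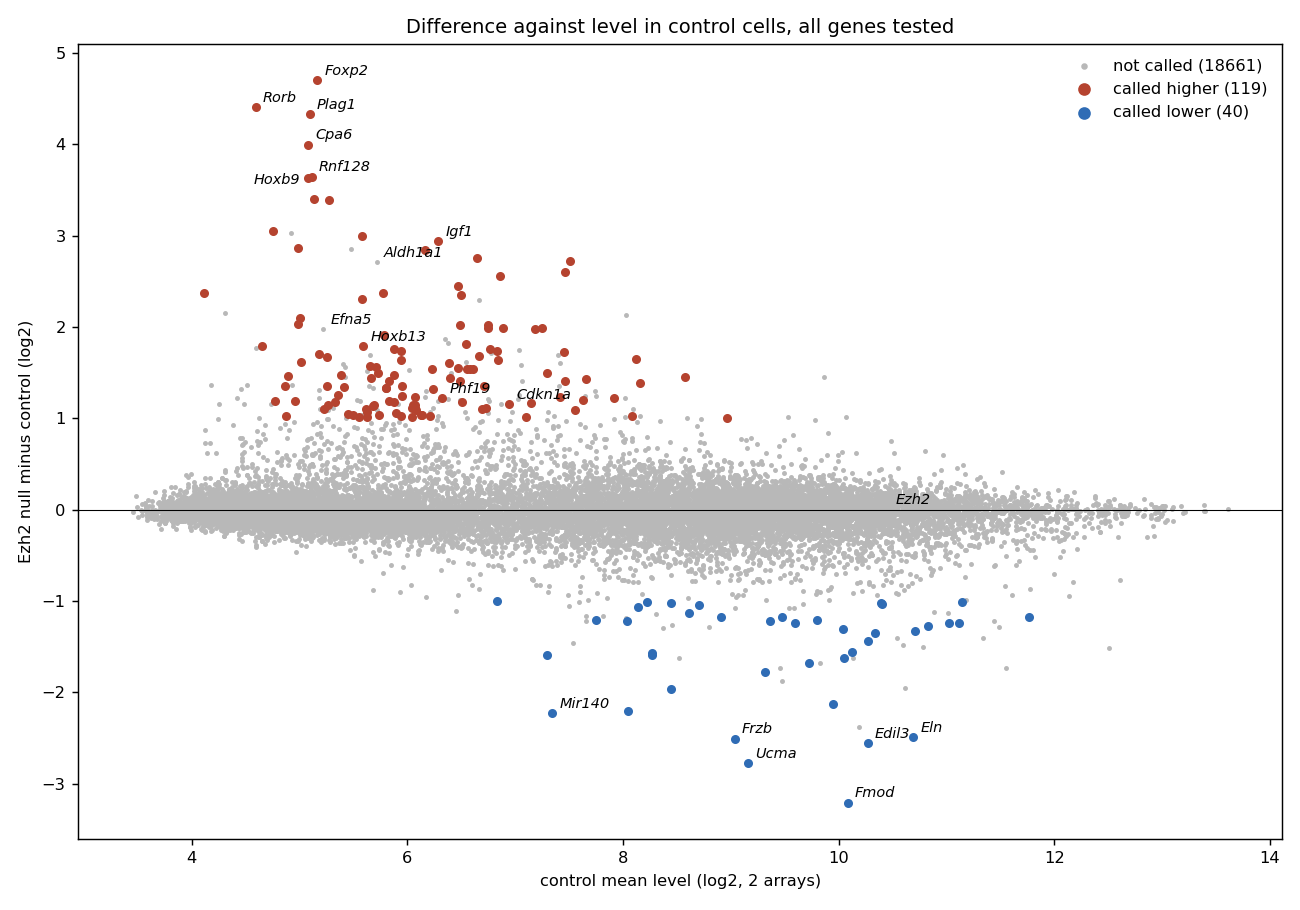
Difference between Ezh2 null and control cells (log2, vertical axis) against the mean level in control cells (log2, horizontal axis) for 18820 genes. Called higher genes (red, 119) start mostly below a level of 8, called lower genes (blue, 40) start mostly above it, and Ezh2 itself lies near 0.

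The number of called genes depended on single arrays. Leaving out each of the 4 arrays in turn gave 99 to 192 called higher genes and 24 to 116 called lower genes. Without Ezh2 null replicate 2 the counts were 99 and 24, without Ezh2 null replicate 1 they were 192 and 116, and without control replicate 1 the lower genes numbered 94. Of the 159 called genes, 83 (64 higher, 19 lower) passed the test in all 4 of these fits, 35 in 3, 27 in 2, 9 in 1 and 5 in none. Each such fit leaves 1 group with a single array, which is assumed to vary like the other groups. Fitted on the 4 arrays alone, with 1 residual degree of freedom, limma called 0 genes (smallest adjusted p 0.0553, 1651 genes at an unadjusted p under 0.05), so every call rests on the spread shared with the rescued groups.

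Sequences are given for the 4 largest rises and the 2 largest falls with an entry in the RefSeq promoter table, since CpG-rich start sites are what PRC2 targets are known for. The stretches below are the 250 bases before a RefSeq start site (mouse build GRCm38.p6, written 5′ to 3′ on the strand of the gene), with each CpG in capitals. Rorb and Pcdh9 have 2 start sites in the table, and for each the one with the most CpG is shown. Foxp2, Plag1, Cpa6 and Hoxb9, also among the 8 largest rises, are not shown. The first 4 stretches belong to genes that rose and the last 2 to genes that fell. They are Rorb (chr19:19111197-19111446, minus strand), Rnf128 (chrX:139610370-139610619, plus strand), Pcdh9 (chr14:93890670-93890919, minus strand), Igf2bp3 (chr6:49214955-49215204, minus strand), Fmod (chr1:134037004-134037253, plus strand) and Ucma (chr2:4975872-4976121, plus strand).
Rorb: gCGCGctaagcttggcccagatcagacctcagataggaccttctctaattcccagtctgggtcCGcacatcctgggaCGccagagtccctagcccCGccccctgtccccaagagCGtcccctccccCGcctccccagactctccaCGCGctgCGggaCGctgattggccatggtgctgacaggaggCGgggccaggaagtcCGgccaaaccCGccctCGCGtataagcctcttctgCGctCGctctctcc
Rnf128: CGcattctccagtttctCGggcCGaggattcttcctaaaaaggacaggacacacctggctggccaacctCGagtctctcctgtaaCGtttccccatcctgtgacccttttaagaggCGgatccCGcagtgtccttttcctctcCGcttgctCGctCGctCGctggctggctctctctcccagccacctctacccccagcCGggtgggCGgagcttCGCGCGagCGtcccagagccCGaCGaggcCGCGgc
Pcdh9: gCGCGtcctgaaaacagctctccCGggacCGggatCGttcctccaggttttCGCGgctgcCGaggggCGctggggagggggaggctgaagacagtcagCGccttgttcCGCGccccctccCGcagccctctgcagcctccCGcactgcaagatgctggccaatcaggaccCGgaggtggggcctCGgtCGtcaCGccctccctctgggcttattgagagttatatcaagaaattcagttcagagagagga
Igf2bp3: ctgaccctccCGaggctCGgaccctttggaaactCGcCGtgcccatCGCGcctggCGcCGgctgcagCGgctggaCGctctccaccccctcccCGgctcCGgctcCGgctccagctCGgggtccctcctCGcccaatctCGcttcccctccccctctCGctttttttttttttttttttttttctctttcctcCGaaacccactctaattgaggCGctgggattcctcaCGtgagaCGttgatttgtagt
Fmod: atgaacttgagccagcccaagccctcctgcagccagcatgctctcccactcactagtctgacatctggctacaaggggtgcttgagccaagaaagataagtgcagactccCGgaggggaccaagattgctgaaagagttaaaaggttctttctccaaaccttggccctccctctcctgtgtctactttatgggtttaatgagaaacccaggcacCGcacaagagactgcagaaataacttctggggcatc
Ucma: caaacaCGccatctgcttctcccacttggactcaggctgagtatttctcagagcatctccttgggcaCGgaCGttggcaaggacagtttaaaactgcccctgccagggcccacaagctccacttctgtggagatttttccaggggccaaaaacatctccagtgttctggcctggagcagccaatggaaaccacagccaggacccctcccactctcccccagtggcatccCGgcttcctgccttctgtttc
The stretches of the 4 genes that rose held 18 to 21 CpG, and those of Fmod and Ucma held 2 and 4. To describe all called genes, the stretch from 250 bases before to 50 after the start was taken for those in the RefSeq promoter table, 90 of the 119 higher and 28 of the 40 lower genes, using for each gene its start with the most CpG. The median number of CpG was 23 for the higher genes and 8.5 for the lower genes, against 17 for 14739 genes in all. A C and G content over 50% together with an observed over expected CpG ratio over 0.6 was met by 67.8% of the higher and 42.9% of the lower genes, against 52.7% of all genes. These shares are descriptions of sequence, and no test was made on them.

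The 3 largest rises were in genes of transcription factors. Foxp2, a forkhead transcription factor known from brain and lung development, read 9.83 and 9.91 in Ezh2 null cells and 5.44 and 4.89 in control cells, the largest difference of all genes at 4.70 ± 0.66 (limma, adjusted p = 0.0169). Rorb, an orphan nuclear receptor, read 8.94 and 9.06 in Ezh2 null cells against 4.76 and 4.42 in control cells, a rise of 4.41 ± 0.35 (limma, adjusted p = 0.00216). Plag1, a zinc finger factor and an oncogene of salivary gland tumours, read 9.54 and 9.31 in Ezh2 null cells against 5.07 and 5.11 in control cells, a rise of 4.33 ± 0.25 (limma, adjusted p = 0.00112). In each of these genes both Ezh2 null arrays stood far above both control arrays and close to each other.

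Other genes among the first 15 have quite different roles. Cpa6, a secreted carboxypeptidase whose transcripts the study also imaged in single cells, read 9.25 and 8.90 in Ezh2 null cells and 5.14 and 5.02 in control cells, a rise of 4.00 ± 0.35 (limma, adjusted p = 0.00316). Rnf128, an E3 ubiquitin ligase known from T cell anergy, rose by 3.65 ± 0.48, Pcdh9, a protocadherin of neural cells, by 3.40 ± 0.36, and Chn1, which inactivates the GTPase Rac, by 3.05 ± 0.21. Prkaa2, the alpha 2 catalytic subunit of the energy sensor AMPK, read 9.26 and 9.54 in Ezh2 null cells and 6.70 and 6.60 in control cells, a rise of 2.75 ± 0.16 with an adjusted p of 0.00112 in limma. Rragd, a Rag GTPase that couples amino acids to mTORC1, rose by 2.84 ± 0.20, and Akr1c14, an aldo-keto reductase, by 3.00 ± 0.21. The X-linked membrane protein gene Itm2a rose by 2.86 ± 0.37. The smallest adjusted p of all genes, 7.11e-05 in limma, belonged to Tlcd4, which read 6.48 and 6.50 in Ezh2 null cells and 4.16 and 4.06 in control cells and was chosen after its values were seen. Of the 15, Foxp2 and Rnf128 were past the threshold no longer without control replicate 2 or without Ezh2 null replicate 2 (adjusted p up to 0.0791 and 0.0527), and Hoxb9 no longer without control replicate 2 (adjusted p = 0.0539), whereas the other 12 passed in all 4 fits.

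**Figure D2:**
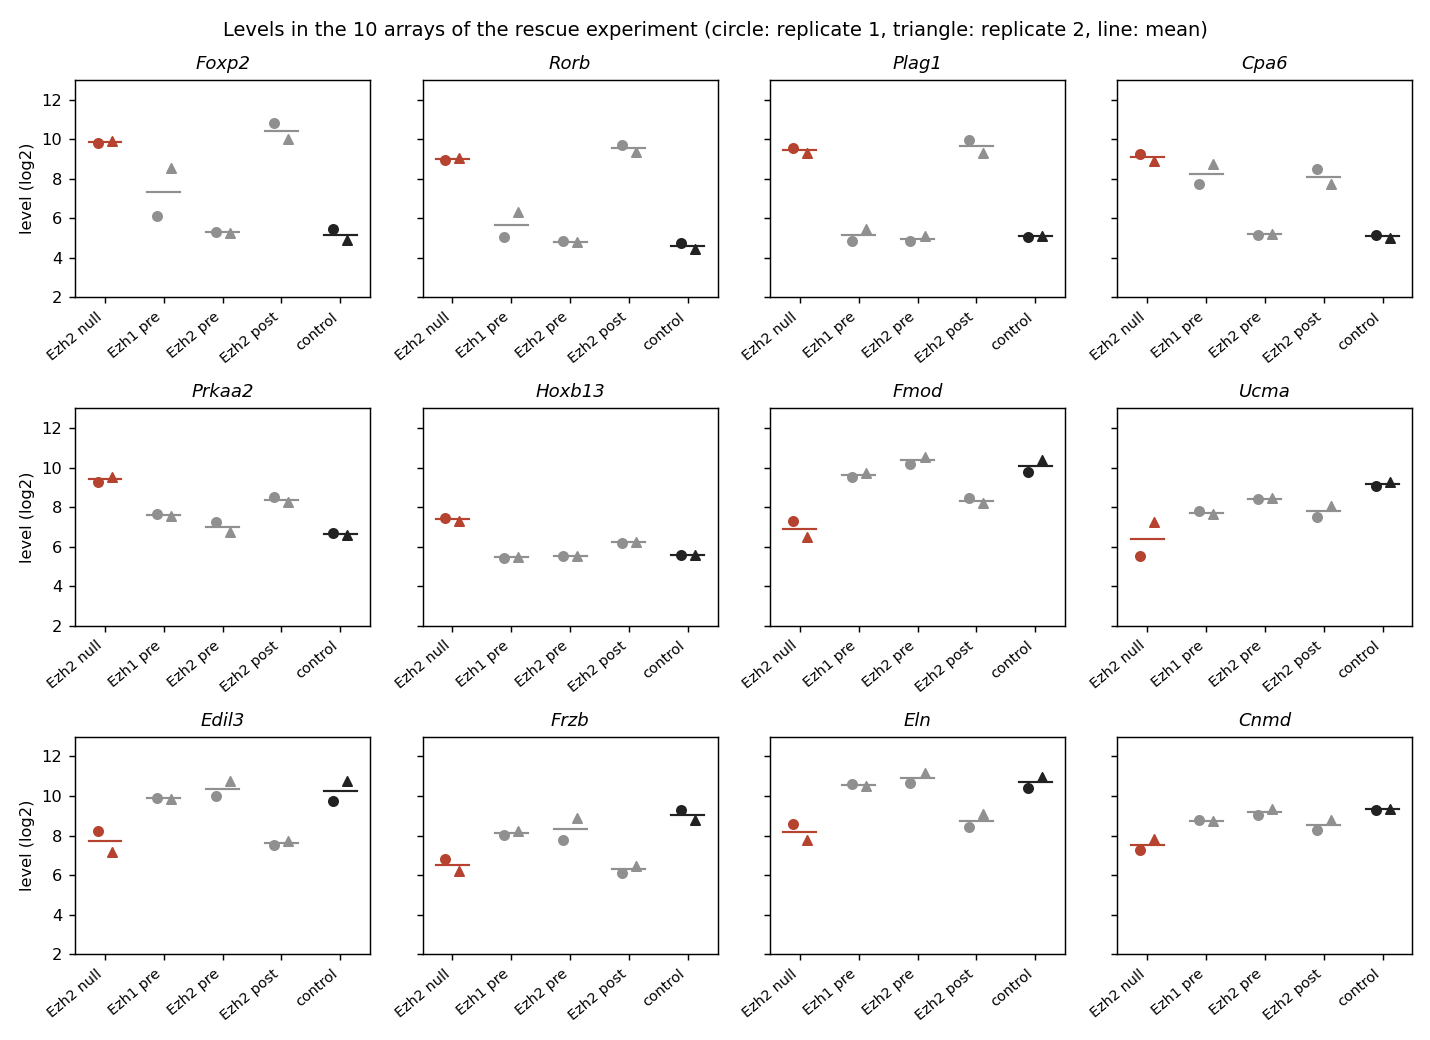
Levels (log2, vertical axis) of 6 genes that rose and 6 that fell in the 10 arrays of the rescue experiment, by group (horizontal axis, Ezh2 null in red at the left and control in black at the right, the rescued groups in grey between them). The Ezh2 null arrays lie apart from the control arrays in all 12 genes, and the 2 Ezh2 null arrays of Ucma (5.53 and 7.25) are the farthest from each other.

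Over all genes 1.2% rose and 0.76% fell. Of the oncofetal list, genes active in the embryo and in tumours but little in adult tissue, 3 of 11 measured rose and 0 fell. Besides Plag1 these were the RNA-binding proteins Igf2bp3 and Igf2bp1, which bind and stabilize Igf2 and Myc transcripts. Igf2bp3 read 8.14 and 9.18 in Ezh2 null cells and 5.39 and 5.15 in control cells, a rise of 3.39 ± 0.29 (limma, adjusted p = 0.00278), and Igf2bp1, already high, read 9.88 and 10.05 in Ezh2 null cells and 8.85 and 9.08 in control cells. The other 8 members did not pass, Lin28b among them at 4.68 and 4.55 in Ezh2 null cells and 4.78 and 4.78 in control cells. The median of the list was −0.05, and Igf2bp1 lost its call without Ezh2 null replicate 2 (adjusted p = 0.0592). Chchd7, whose start site lies 0.4 kb from that of Plag1 on the opposite side, rose as well, by 1.65 ± 0.11 (limma, adjusted p = 0.00143), and was chosen after its values were seen.

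Of the forkhead factors 3 of 27 measured rose and 0 fell, against 1.2% and 0.76% of all genes. Foxf1, a mesenchymal factor of lung and gut, read 9.24 and 9.08 in Ezh2 null cells and 6.98 and 7.38 in control cells, and Foxa1, a pioneer factor of endoderm and mammary epithelium, 7.63 and 7.75 in Ezh2 null cells and 6.50 and 6.51 in control cells. The rise was 1.98 ± 0.30 for Foxf1 and 1.18 ± 0.087 for Foxa1, and in both the groups did not overlap, as upwards in 16.4% of all genes. Foxf1 lost its call without either Ezh2 null array (adjusted p up to 0.113), the count was 1 of 27 without Ezh2 null replicate 2, and the median of the whole list was −0.06. Of 31 nuclear receptors 2 rose, Rorb and its paralogue Rora (1.15 ± 0.13). Of 60 homeobox and paired factors outside the Hox clusters 4 rose, namely Onecut2 (1.11 ± 0.13), Pax9 (0.79 ± 0.14), Msx1 (0.73 ± 0.11) and Pax6 (0.52 ± 0.095), and of 58 T-box, Sox, Gata, AP-2, Ebf and bHLH factors 2 rose, Sox11 (1.35 ± 0.22) and Gata3 (1.09 ± 0.14), while Sox4 fell (−0.60 ± 0.089). Pax9 and Pax6 kept their calls only without control replicate 1 (adjusted p up to 0.204 in the others), Msx1 and Sox11 lost theirs without control replicate 2 (0.0604 and 0.0975), and Onecut2 and Sox4 without Ezh2 null replicate 2 (0.0515 and 0.112). The homeobox count was 2 of 60 without Ezh2 null replicate 2, the T-box to bHLH count was 4 rising and 4 falling without Ezh2 null replicate 1, and 2 nuclear receptors fell without control replicate 1. Most regulators of these families did not pass the test, and the median of each of these 3 lists lay between −0.03 and 0.04. The shares over all genes, 1.2% rising and 0.76% falling, are the background for these lists too.

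The Hox clusters, which set position along the body axis, moved unevenly. In the HoxB cluster 4 of 9 measured genes rose and none fell, against 1.2% and 0.76% of all genes. Hoxb9 read 7.99 and 9.42 in Ezh2 null cells and 5.47 and 4.68 in control cells (3.63 ± 0.49), Hoxb13, at the 5′ end of the cluster, 7.47 and 7.30 in Ezh2 null cells and 5.60 and 5.58 in control cells (1.79 ± 0.084, adjusted p = 0.000428 in limma), Hoxb5 7.06 and 7.16 in Ezh2 null cells and 5.75 and 5.58 in control cells, and Hoxb6 6.76 and 6.74 in Ezh2 null cells and 5.47 and 5.34 in control cells. Hoxb1 to Hoxb4 and Hoxb7 lay between −0.14 and 0.18. Without Ezh2 null replicate 2 the count was 2 of 9. In the HoxC cluster 0 of 9 rose and 3 fell, all at the 3′ end: Hoxc5 read 8.69 and 8.97 in Ezh2 null cells and 10.36 and 10.18 in control cells (−1.44 ± 0.13, adjusted p = 0.00316 in limma), Hoxc4 7.94 and 8.02 in Ezh2 null cells and 8.64 and 8.61 in control cells, and Hoxc6 9.71 and 9.67 in Ezh2 null cells and 10.11 and 10.31 in control cells. The HoxC count was 1 of 9, Hoxc5 alone, without control replicate 2 and without either Ezh2 null array. Hoxa10 was the 1 of 10 HoxA genes that rose (1.32 ± 0.14) and Hoxd10 the 1 of 8 HoxD genes (1.01 ± 0.15). In fits without 1 array the median of the HoxA genes ran from −0.209 to 0.053. That of the HoxD genes ran from −0.076 to 0.056.

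**Figure D3:**
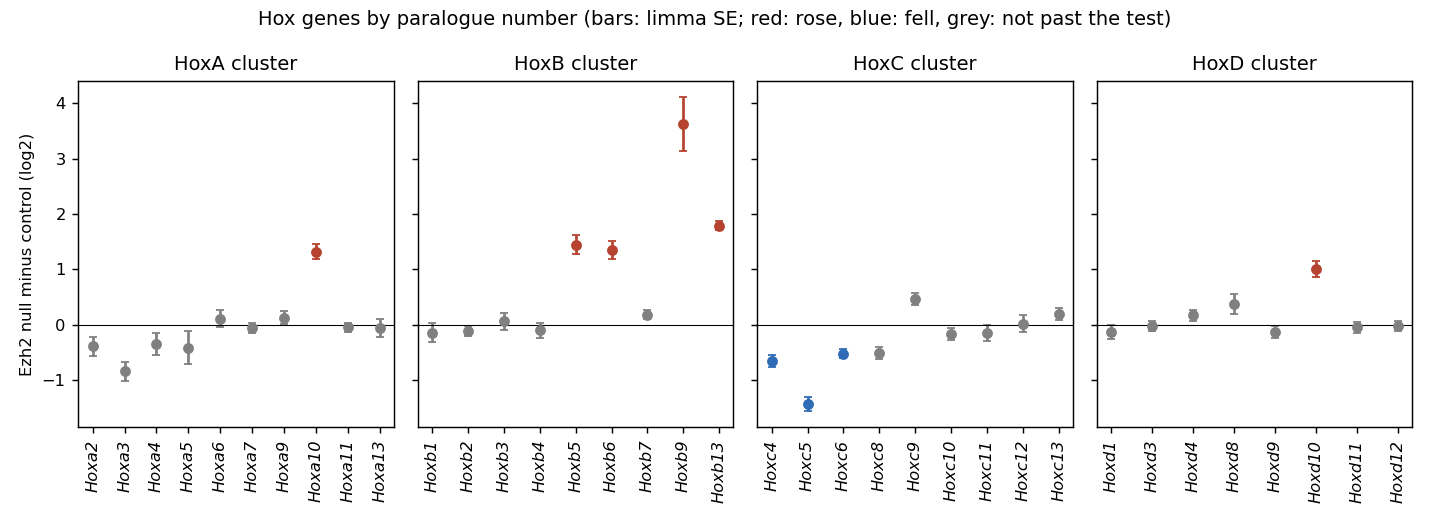
Difference between Ezh2 null and control cells (log2, vertical axis, bars 1 SE from limma) for the Hox genes measured, by cluster and paralogue number (horizontal axis). Hoxb5, Hoxb6, Hoxb9 and Hoxb13 rose, Hoxc4, Hoxc5 and Hoxc6 fell, and 1 gene each rose in HoxA and HoxD.

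At a few loci called genes lay within 200 kb of the next called gene in the reference annotation, all moving the same way as that gene. Genes that were not called could lie between them, and how often such pairs arise among all genes was not tested. The longest run held Igf2bp1, Hoxb13, Hoxb9, Hoxb6 and Hoxb5 on chromosome 11. The others were Raet1e and H60b on chromosome 10, ligands of the natural killer cell receptor NKG2D (1.62 ± 0.24 and 1.18 ± 0.21), the guanylate-binding proteins Gbp3 and Gbp2 on chromosome 3 (1.23 ± 0.18 and 1.48 ± 0.11), Plag1 and Chchd7 and also Epb41l4b and Ptpn3 on chromosome 4, and, among genes that fell, Wwp2 and Mir140 on chromosome 8. H60b kept its call only without Ezh2 null replicate 1 (adjusted p up to 0.143 in the other fits), Raet1e lost it without control replicate 2 (0.0727) and Epb41l4b without Ezh2 null replicate 2 (0.102). These loci were found after the calls were made.

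Of 15 measured insulin-like growth factor ligands, receptors and binding proteins 2 rose and 1 fell, with a median of −0.01. Over all genes 1.2% rose and 0.76% fell. Igf1, a secreted growth factor, read 9.87 and 8.58 in Ezh2 null cells and 5.95 and 6.63 in control cells, a rise of 2.94 ± 0.37 (limma, adjusted p = 0.0113), and Igfbp4, which binds it outside the cell, read 10.28 and 9.79 in Ezh2 null cells and 8.46 and 8.69 in control cells, a rise of 1.46 ± 0.16. Irs1, an adaptor below the receptor, fell, at 9.83 and 9.79 in Ezh2 null cells and 10.43 and 10.86 in control cells (−0.84 ± 0.15), a call lost in 3 of the 4 fits without an array (all but that without control replicate 1, adjusted p up to 0.181). Igfbp5 differed by 2.29 ± 0.56 but did not pass (adjusted p = 0.0965 in limma), with 9.85 and 8.06 in Ezh2 null cells and 6.45 and 6.87 in control cells, so that the 2 Ezh2 null arrays lay far apart. Plagl1, an imprinted zinc finger factor related to Plag1, was the 1 of 25 imprinted genes that passed, at 10.64 and 9.83 in Ezh2 null cells and 7.08 and 7.93 in control cells (2.73 ± 0.36).

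Marker lists of other lineages held few calls. None of the measured genes of the lists for neurons (20), epithelium (19), blood cells (12), smooth muscle (13), skeletal muscle (15), pluripotency (17) and germline (20) passed in limma in either direction, and the medians of these lists lay between −0.08 and −0.03. Of all genes 1.2% rose and 0.76% fell, so lists of this size would hold few calls or none at that share. Without 1 array 2 neuronal genes rose (control replicate 2), 1 pluripotency gene fell (control replicate 1) and 1 smooth muscle gene fell (Ezh2 null replicate 1). Of 50 genes used in axon guidance 6 rose and 2 fell, against 1.2% and 0.76% of all genes, and the median was 0.10 against −0.03 over all genes. Those that rose were the ephrins Efna3 (1.56 ± 0.13) and Efna2 (1.02 ± 0.12), the ephrin receptor Epha3 (1.72 ± 0.22), the netrin receptor Unc5a (0.99 ± 0.099), and the secreted cues Slit3 (1.64 ± 0.23) and Sema3a (1.43 ± 0.24), while Sema6a and Ephb3 fell. Efna3 read 8.12 and 7.93 in Ezh2 null cells and 6.41 and 6.53 in control cells, with no overlap, as upwards in 16.4% of all genes. Efna5 and Slit2 differed by 1.98 ± 0.54 and 1.72 ± 0.42 but did not pass (adjusted p = 0.129 and 0.0997 in limma). Sema3a passed in 0 of the 4 fits without an array (adjusted p 0.0633 to 0.0895), Efna2, Epha3 and Slit3 lost their calls without Ezh2 null replicate 2 (up to 0.0926), Sema6a without that array or control replicate 1 (up to 0.127) and Ephb3 without that array or control replicate 2 (up to 0.0969). Without Ezh2 null replicate 2 the count was 3 rising and 0 falling, without control replicate 2 it was 10 and 1, and without control replicate 1 it was 7 and 1.

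Members of several signalling pathways moved singly. Of 42 Wnt genes 4 rose and 3 fell, against 1.2% and 0.76% of all genes. Those that rose were the ligand Wnt4 (1.15 ± 0.17), Rspo3, which enhances Wnt signals (0.84 ± 0.12), the receptor Fzd7 (0.77 ± 0.11) and Notum, which inactivates Wnt proteins (0.68 ± 0.10). Those that fell were the receptors Fzd9 (8.10 and 8.0 in Ezh2 null cells and 9.79 and 9.66 in control cells, −1.67 ± 0.12) and Fzd8 (−0.96 ± 0.12) and the R-spondin receptor Lgr5 (−1.24 ± 0.14). Of 33 TGF beta and BMP genes the receptors Bmpr1b (1.41 ± 0.15) and Tgfbr1 (0.80 ± 0.10) rose, and of 35 FGF, EGF and Hedgehog genes the EGF family ligands Nrg1 (1.08 ± 0.11) and Btc (0.62 ± 0.095) and the Hedgehog target Gli1 (0.87 ± 0.16) rose. Among 31 ion channel genes Cacna2d1 (1.99 ± 0.38), Cacna1g (1.15 ± 0.12) and Scn1a (0.71 ± 0.11) rose. Of 32 cadherins and protocadherins Pcdh9 alone passed. Without Ezh2 null replicate 2 the counts of rising genes were 2 of 42 for Wnt, 1 of 33 for TGF beta and BMP, 1 of 35 for FGF, EGF and Hedgehog and 1 of 31 for ion channels. Without control replicate 2, 2 Wnt genes and 6 of the TGF beta and BMP genes rose, and without Ezh2 null replicate 1, 5 ion channel genes rose and 3 FGF, EGF and Hedgehog genes fell. Without control replicate 1, 2 genes fell in each of the TGF beta and FGF lists and 4 among the cadherins. Gli1 kept its call only without Ezh2 null replicate 1 (adjusted p up to 0.135 in the others). Rspo3, Notum and Scn1a lost theirs without control replicate 2 or Ezh2 null replicate 2 (up to 0.113), Btc without either Ezh2 null array (up to 0.0648), Fzd7, Tgfbr1 and Cacna2d1 without Ezh2 null replicate 2 (0.0962, 0.0653 and 0.244) and Wnt4 without control replicate 2 (0.0738).

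Genes of the cell cycle machinery did not pass the test. None of 27 proliferation genes and none of 30 targets of Myc and ribosome biogenesis genes was past the threshold in limma, although 25 of the 27 had a positive sign (median 0.15 and 0.13 for the 2 lists). Of all 18820 genes 7805 had a positive sign. With 1.2% of all genes rising and 0.76% falling, lists of this size would hold few calls or none. The proliferation genes averaged 10.4 and 9.83 in Ezh2 null cells and 10.2 and 9.74 in control cells, so replicate 1 and replicate 2 lay farther apart than the groups, and the Ezh2 null array was the higher of each replicate pair. The median of the list was −0.005 without Ezh2 null replicate 1 and 0.313 without Ezh2 null replicate 2, and 2 of the 30 Myc targets and ribosome biogenesis genes rose without control replicate 1. Of 10 cell cycle inhibitors Cdkn1a (p21) alone rose, at 8.25 and 7.95 in Ezh2 null cells and 7.27 and 6.62 in control cells (1.15 ± 0.18, adjusted p = 0.0214 in limma), a call lost without either Ezh2 null array (adjusted p up to 0.0802). Cdkn2a, a known PRC2 target in fibroblasts, read 8.40 and 8.50 in Ezh2 null cells and 8.48 and 8.44 in control cells and did not pass (adjusted p = 0.979 in limma). The median of the inhibitors was −0.065, and it ran from −0.191 to 0.075 in fits without 1 array. Of 21 p53 targets, which include Cdkn1a, 1 rose and 1 fell (Btg2, −0.69 ± 0.13), the fall passing only without control replicate 2 among the 4 fits (adjusted p up to 0.22 in the others).

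Interferon response genes had a median of 0.24, with 21 of 28 above 0, but 2 of the 28 passed, both upwards. Of all 18820 genes 7805 were above 0, and 1.2% rose and 0.76% fell in the test. Rsad2 (viperin), an antiviral enzyme, read 8.36 and 7.83 in Ezh2 null cells and 6.90 and 6.22 in control cells (1.54 ± 0.21), and its neighbour Cmpk2, a mitochondrial nucleotide kinase, 6.99 and 6.52 in Ezh2 null cells and 5.89 and 5.86 in control cells (0.88 ± 0.15). Usp18, which restrains the interferon receptor, read 11.35 and 11.27 in Ezh2 null cells and 10.04 and 9.67 in control cells and did not pass (adjusted p = 0.0647 in limma). The mean level of the list was 8.57 and 8.06 in Ezh2 null cells and 8.03 and 7.95 in control cells. H2-K1, the heavy chain of a class I major histocompatibility molecule, was the 1 of 15 antigen presentation genes that rose (1.41 ± 0.20), and Ccl20 the 1 of 23 chemokines and cytokines (0.73 ± 0.11). Cmpk2 kept its call only without Ezh2 null replicate 2 (adjusted p up to 0.0807 in the others), and Ccl20 lost its call there (0.107). Without control replicate 2 the antigen presentation genes that rose numbered 3. Of the interferon genes 1 passed without control replicate 1 or Ezh2 null replicate 1, and 4 without Ezh2 null replicate 2.

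Fmod, Ucma and Eln, genes of the extracellular matrix or of cartilage, were among the 5 largest falls. Fmod (fibromodulin), a small proteoglycan that binds collagen fibrils, read 7.29 and 6.47 in Ezh2 null cells and 9.78 and 10.40 in control cells, the largest fall of all genes at −3.21 ± 0.30 (limma, adjusted p = 0.00426). Ucma, a secreted protein of cartilage, read 5.53 and 7.25 in Ezh2 null cells and 9.06 and 9.26 in control cells, a fall with a difference of −2.77 ± 0.38 (limma, adjusted p = 0.0164). Eln (elastin) read 8.60 and 7.80 in Ezh2 null cells and 10.43 and 10.96 in control cells (−2.49 ± 0.33). In each of these genes the higher Ezh2 null array stayed well below the lower control array.

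Over all 18820 genes 1.2% rose, 0.76% fell and 11010 had a negative sign. Of 19 measured cartilage and bone genes 0 rose and 5 fell, and 17 had a negative sign, with a median of −0.53 against −0.03 over all genes. Beside Ucma these were Cnmd (chondromodulin), which restrains vessel growth in cartilage (7.27 and 7.82 in Ezh2 null cells and 9.28 and 9.36 in control cells, −1.78 ± 0.15), the collagens Col9a1 (−1.56 ± 0.28) and Col2a1 (−1.04 ± 0.15), and Comp, a cartilage matrix glycoprotein (−0.60 ± 0.11). Sox9, the main transcription factor of cartilage, read 10.94 and 10.41 in Ezh2 null cells and 11.44 and 11.77 in control cells and did not pass (adjusted p = 0.0514 in limma), nor did its partner Sox6, at 8.26 and 6.94 in Ezh2 null cells and 9.30 and 9.65 in control cells (adjusted p = 0.0615). Acan (aggrecan), a defining cartilage gene, was low in both groups, at 5.89 and 5.79 in Ezh2 null cells and 6.22 and 6.17 in control cells. The mean level of the list was 6.59 and 6.46 in Ezh2 null cells and 7.26 and 7.31 in control cells. A smaller share of cells with this program and less RNA of it per cell cannot be told apart in RNA from whole cultures. Without control replicate 2 the count was 3 of 19, and Col9a1 kept its call only without Ezh2 null replicate 1 (adjusted p up to 0.127 in the others). Comp kept its call only without control replicate 1 (up to 0.199), and Col2a1 lost its call without Ezh2 null replicate 1 (0.0558).

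Among the 38 fibroblast and matrix genes measured, 5 fell and 1 rose, against 0.76% and 1.2% of all genes, with a median of −0.29. Those that fell were Fmod, Eln, Fbln5, which assembles elastic fibres (−1.01 ± 0.17), Lum (lumican), a proteoglycan related to Fmod (−1.0 ± 0.16), and Col6a2 (−0.44 ± 0.081). The 1 that rose was Fbln1, a fibulin of basement membranes, which read 9.49 and 9.35 in Ezh2 null cells and 6.48 and 7.24 in control cells (2.56 ± 0.24, adjusted p = 0.00454 in limma). Col1a1, the main fibrillar collagen, read 8.49 and 8.42 in Ezh2 null cells and 7.46 and 7.97 in control cells and did not pass. Without control replicate 2, 2 genes fell and 3 rose, and without Ezh2 null replicate 2, 2 fell and 1 rose. Further genes at the head of the fall were Edil3, a secreted integrin ligand (8.25 and 7.17 in Ezh2 null cells and 9.76 and 10.78 in control cells, −2.56 ± 0.42), Frzb, a secreted Wnt antagonist of cartilage (6.83 and 6.23 in Ezh2 null cells and 9.30 and 8.78 in control cells, −2.51 ± 0.36), Colgalt2, a galactosyltransferase acting on collagen (−2.21 ± 0.27), Rasgrp3, an activator of Ras (−2.13 ± 0.25), Fbp1, an enzyme of gluconeogenesis (−1.96 ± 0.31), and Cldn19, a claudin (−1.63 ± 0.27). Edil3 lost its call without control replicate 2 or Ezh2 null replicate 2 (adjusted p up to 0.0918), Frzb without Ezh2 null replicate 2 (0.0962), Eln, Fbp1 and Cldn19 without control replicate 2 (0.051, 0.0899 and 0.108), and Fbln5 without control replicate 2 or Ezh2 null replicate 2 (up to 0.104). Lum kept its call only without control replicate 2 (up to 0.137 in the others) and Col6a2 only without control replicate 1 (up to 0.209).

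**Figure D4:**
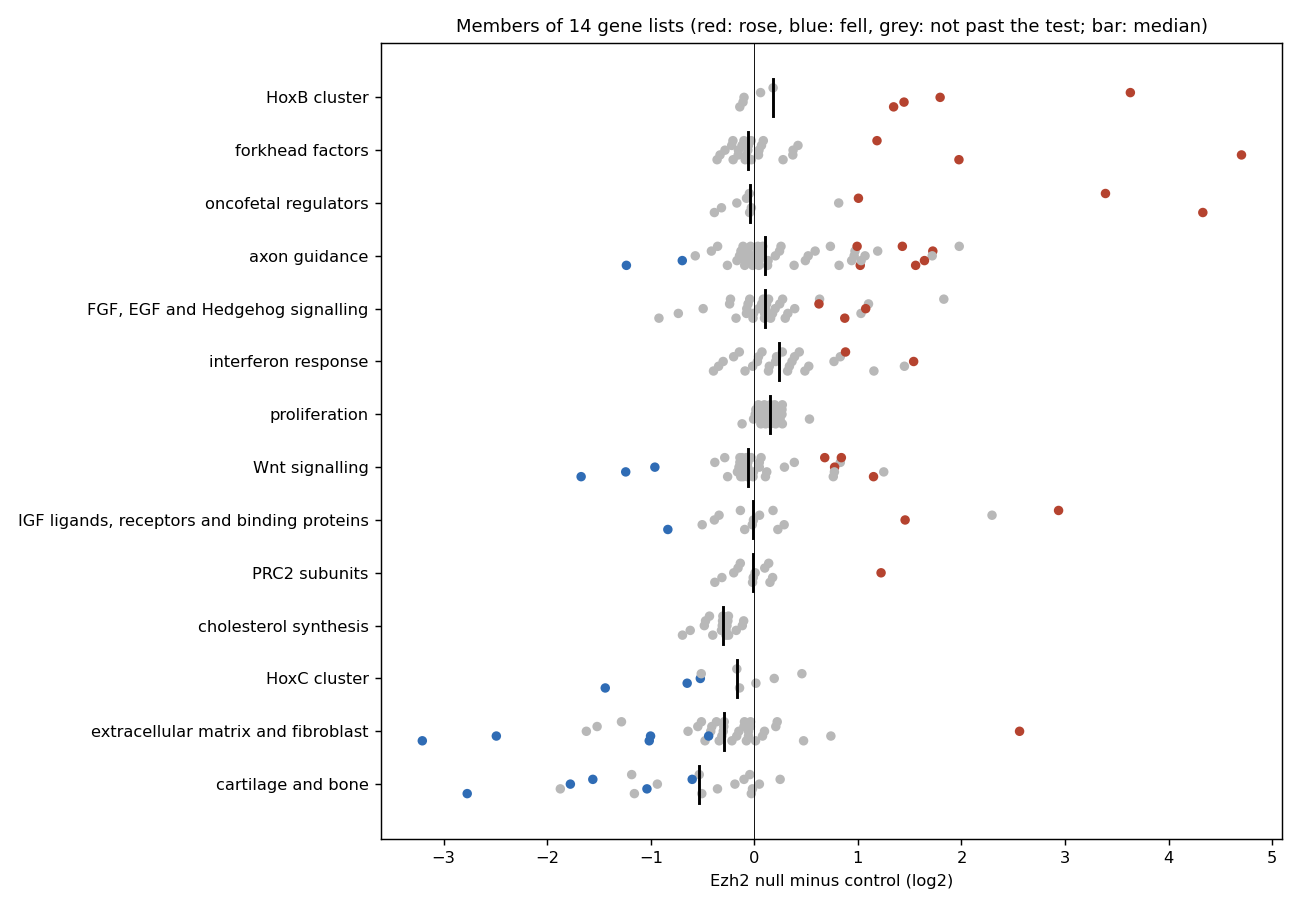
Difference between Ezh2 null and control cells (log2, horizontal axis) for every measured member of 14 gene lists (vertical axis). Red points rose, blue points fell, grey points did not pass the test, and black bars are list medians, which run between −0.53 for cartilage and bone and 0.24 for the interferon response.

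The microRNA gene Mir140 fell together with its host gene and was singled out after its values were seen. It read 5.13 and 5.10 in Ezh2 null cells and 7.02 and 7.66 in control cells, a difference of −2.23 ± 0.18 (limma, adjusted p = 0.00216), and Wwp2, a ubiquitin ligase gene, read 9.70 and 9.41 in Ezh2 null cells and 10.69 and 10.97 in control cells (−1.27 ± 0.14, adjusted p = 0.00696 in limma). In both genes the 2 groups were well apart. In the RefSeq annotation (GRCm38.p6) the hairpin, at chr8:107551244-107551313 on the plus strand, lies inside the span of Wwp2, and whether the probe set reads the host transcript or the microRNA was not tested. miR-140 is known as a microRNA of cartilage. Its 3p strand is shown with the seed, bases 2 to 8, in capitals.
mmu-miR-140-3p: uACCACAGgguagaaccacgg

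Metabolic lists held few calls, beside 1.2% rising and 0.76% falling among all genes. None of 19 cholesterol synthesis genes passed in limma, although all 19 were negative (median −0.30). Of all 18820 genes 11010 were negative. Mvd, an enzyme of the mevalonate pathway, read 8.10 and 8.14 in Ezh2 null cells and 8.47 and 9.0 in control cells (adjusted p = 0.113), and without control replicate 1 the count of the list was 7 falling. Of 26 glycolysis and hypoxia genes Pfkp rose (0.82 ± 0.13) and Hk1 (−0.61 ± 0.082) and Aldoc (−0.60 ± 0.11) fell, and of 20 integrated stress response genes Vldlr (1.03 ± 0.12) and Nupr1 (0.62 ± 0.12) rose. Among 20 H3K27 demethylases, trithorax proteins and DNA methyltransferases the de novo methyltransferase Dnmt3b rose (0.58 ± 0.080). Agpat2, an enzyme of triglyceride synthesis, was the 1 of 13 adipocyte genes that rose (1.24 ± 0.14), and Flt1, a receptor of vascular endothelial growth factor, the 1 of 14 endothelial genes (1.1 ± 0.18). Of these calls, Aldoc passed in 0 of the 4 fits without an array (adjusted p 0.0573 to 0.199). Pfkp kept its call only without Ezh2 null replicate 1 (up to 0.133 in the others), Flt1 likewise (up to 0.145), and Nupr1 only without control replicate 2 (up to 0.237). Hk1, Dnmt3b and Agpat2 lost theirs without Ezh2 null replicate 2 (0.0747, 0.0876 and 0.0503). None of 13 retinoid genes passed in limma, and their median ran from −0.072 to 0.114 in fits without 1 array. Aldh1a1, a retinaldehyde dehydrogenase, read 9.95 and 6.90 in Ezh2 null cells and 5.34 and 6.10 in control cells, and its close paralogue Aldh1a7, whose probes may read both genes, 9.53 and 6.37 in Ezh2 null cells and 4.72 and 5.13 in control cells. In both the 2 Ezh2 null arrays lay far apart. In all, 42 genes differed by at least 4-fold, and 8 of them, these 2 included, did not pass.

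The rescued groups are given beside these values without a test, because they would share the control arrays. In cells given Ezh1 before the deletion Foxp2 read 6.14 and 8.54, in those given Ezh2 before it 5.31 and 5.25, and in post-rescue cells 10.79 and 9.98. Plag1 read 4.86 and 5.45 with Ezh1 given before, 4.84 and 5.11 with Ezh2 given before, and 9.97 and 9.32 in post-rescue cells. In both genes the post-rescue arrays lay near the Ezh2 null arrays. Chn1 read 5.52 and 4.95 and Rragd 6.26 and 6.25 in post-rescue cells, nearer to their control levels. Among genes that fell, Edil3 read 7.55 and 7.73 and Frzb 6.13 and 6.48 in post-rescue cells, close to the Ezh2 null arrays, whereas Hoxc5 read 10.11 and 10.08, close to control cells. In Cpa6 the 2 Ezh1 pre-rescue arrays read 7.73 and 8.74, above the 5.14 and 5.22 of Ezh2 pre-rescue cells. Some other rises were also seen in Ezh2 pre-rescue cells. Slit3 read 8.60 and 8.27 there, against 8.46 and 8.50 in Ezh2 null cells and 6.56 and 7.12 in control cells. Igfbp4 read 9.92 and 9.88 there, against 10.28 and 9.79 in Ezh2 null cells and 8.46 and 8.69 in control cells. The genes of this paragraph were picked, and how many called genes went each way was not counted.

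The same clone was also followed after tamoxifen in a separate time course with its own arrays. The difference between Ezh2 null and control cells was set against that of day 32 (2 arrays) over vehicle (2 arrays). Tamoxifen and Ezh2 loss go together there as well. The 2 experiments were normalized apart and shared no array. At day 32, 483 genes were called higher (2.57%) and 312 lower (1.66%). Of the 119 genes called higher in Ezh2 null cells 95 (79.8%, and 19.7% of the 483) were also called higher at day 32, and of the 40 called lower 36 (90%, and 11.5% of the 312) were also called lower. The sign was shared by 115 of the 119 and by 40 of the 40, against 46.7% of all genes with a positive and 53.3% with a negative difference at day 32. Leaving out 1 of the 4 arrays gave shares between 54.5% and 77.8% for the higher and between 58.5% and 87.5% for the lower genes. Without control replicate 2 they were 54.5% and 58.5%.

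The size of the effect differed between the experiments for 1527 genes (8.11%) in a test of the difference itself (limma on all 18 arrays), among them 49 of the 159 called genes. The 159 were selected on the Ezh2 null minus control difference, which also enters this test. The share among them and the side with the larger effect are not free of that selection. Of the 36 higher genes that differed 20 had the smaller rise in Ezh2 null cells, and of the 13 lower genes 10 had the smaller fall. The arrays of the rescue experiment had a narrower spread (standard deviation 2.29 to 2.38, against 2.64 to 2.70 in the time course) and a higher floor, and the part of this in the result was not tested. Cnmd fell by 1.78 here, with −4.71 at day 32, and Ucma by 2.77, with −5.56 at day 32. In the other 16 of the 36 higher genes the rise was larger in Ezh2 null cells. H2-K1 rose by 1.41 with −0.03 at day 32, Rsad2 by 1.54 with −0.67, Gbp3 by 1.23 with −1.70 and a call in the opposite direction there, and Fxyd5, a regulator of the sodium pump, by 2.00 with −0.49. Gbp3 and Fxyd5 were chosen after their values were seen.

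**Figure D5:**
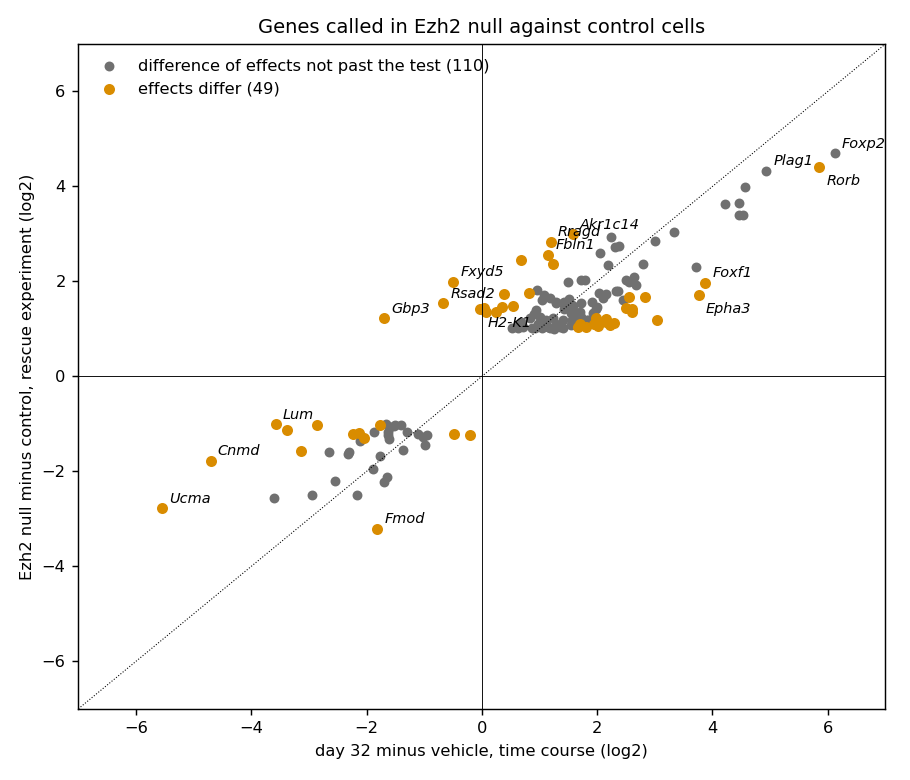
Difference between Ezh2 null and control cells (log2, vertical axis) against that between day 32 and vehicle in the time course (log2, horizontal axis) for the 159 called genes. Orange points (49) differ between the experiments, the dotted line marks equal effects, and Gbp3, Rsad2, Fxyd5 and H2-K1 lie left of 0.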

How the data were processed

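RNA of clone C2 was hybridised to Affymetrix Mouse Gene ST arrays. The authors normalized the arrays with RMA (oligo package, per the methods) and deposited log2 intensities. A limma correction of a batch difference between first and second replicates of the rescue experiment is also stated. Whether the deposited table includes it is not stated, so the replicate number was kept as a block. Over the 5 groups the mean difference of replicate 2 over replicate 1 had a median of 0.0035 and a standard deviation of 0.0629 over genes, and the replicate differences of 2 groups correlated at −0.43 to 0.54 (10 pairs, 6 negative). The sources used here give no genome build for the array.

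Of 28440 probe sets 21217 carried 1 gene symbol, 1881 several and 5342 none, and the last 7223 were not tested. Identifiers of 21184 matched RefSeq (GRCm38.p6). For 1386 genes with several probe sets the one with the highest mean was kept. Linear models with 1 mean per group were fitted to the 10 arrays with limma 3.58.1 in R 4.3.3 (4 residual and 3.63 prior degrees of freedom). A two-sided moderated test was used, with p-values adjusted by Benjamini and Hochberg over 18820 genes. For list members, rose and fell stand for any fold with an adjusted p below 0.05. All 18 arrays entered the test of the difference from day 32 (8 residual and 4.89 prior degrees of freedom). The fit was tested on simulated data. The number of arrays limits precision.

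Named genes were Cdkn1a, Cdkn2a, Cpa6, Ezh1 and Ezh2, the 15 largest rises and 15 largest falls past the test, and up to 4 members of each of 43 lists with the smallest adjusted p. Small RNAs and predicted genes entered only the counts, apart from those said to be chosen after their values were seen, as were further list members and neighbours named. The comparison and the lists were chosen with earlier results of these data known. Alternatives were no block, the 4 arrays alone, quantile normalization, median centring, a filter on low genes, the mean of probe sets, a prior trend in the variance, other thresholds, and leaving out each array.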

Additional observations from a re-analysis of the deposited data

Results flagged for a closer look

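Among the genes named by the rule, 85 passed the test in Ezh2 null against control cells. For 26 of them this difference was unlike that of day 32 over vehicle (limma on all 18 arrays, adjusted p under 0.05, 2 arrays per group). Over all genes 1527 (8.11%) differed in this test. All 85 had passed on the Ezh2 null minus control difference, which also enters it, so the 2 shares are not alike. Values are log2 effects, Ezh2 null minus control followed by day 32 minus vehicle, and then the difference of the effects. The rescue arrays had a narrower spread and a higher floor than the time course arrays, and the part of this in the differences was not tested. The larger rise in Ezh2 null cells was seen in Akr1c14 (3.00 and 1.58, difference 1.42), Rragd (2.84 and 1.19, difference 1.65), Fbln1 (2.56 and 1.16, difference 1.41), Igfbp4 (1.46 and 0.35, difference 1.11) and Sox11 (1.35 and 0.25, difference 1.1). A rise in Ezh2 null cells stood beside a negative value at day 32 in Rsad2 (1.54 and −0.67, difference 2.21), H2-K1 (1.41 and −0.03, difference 1.44) and Cmpk2 (0.88 and −0.31, difference 1.19).

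The smaller rise in Ezh2 null cells was seen in Rorb (4.41 and 5.85, difference −1.44), Foxf1 (1.98 and 3.88, difference −1.90), Epha3 (1.72 and 3.76, difference −2.04), Hoxb5 (1.45 and 2.51, difference −1.06), Phf19 (1.22 and 1.98, difference −0.75), Gata3 (1.09 and 2.22, difference −1.13), Unc5a (0.99 and 1.78, difference −0.79) and Scn1a (0.71 and 1.54, difference −0.83). Among genes that fell, the smaller fall was seen in Sox4 (−0.60 and −1.14, difference 0.53), Aldoc (−0.60 and −1.73, difference 1.13), Btg2 (−0.69 and −1.56, difference 0.88), Irs1 (−0.84 and −1.53, difference 0.70), Lum (−1.0 and −3.57, difference 2.57), Fam180a (−1.56 and −3.14, difference 1.57), Cnmd (−1.78 and −4.71, difference 2.93) and Ucma (−2.77 and −5.56, difference 2.78), and the larger fall in Lgr5 (−1.24 and −0.20, difference −1.04) and Fmod (−3.21 and −1.82, difference −1.39). The adjusted p ranged from 1.16e-05 for Cnmd to 0.048 for Rorb.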

How the results depend on the processing

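With no replicate block 140 genes were called higher and 49 lower, and 329 rose and 264 fell at any fold. If the deposited values carry the batch correction, the correlations of replicate differences cannot test whether the numbers pair the arrays. With each array centred on its median 218 genes fell. On the 4 arrays alone 0 genes were called higher, 0 lower, and 0 rose or fell at any fold (limma, 1651 at an unadjusted p under 0.05, with 1 residual degree of freedom). Leaving out 1 array gave 99 to 192 called higher, 24 to 116 called lower, 136 to 353 rising and 37 to 650 falling genes, the extremes of the last at Ezh2 null replicate 2 and control replicate 1. The other settings kept the counts within 1.5 times, among them 175 higher and 58 lower with the threshold on the adjusted p at 0.15. Of 186 named genes past the threshold, 102 kept their call without Ezh2 null replicate 2, 128 without control replicate 2, 157 without Ezh2 null replicate 1 and 164 without control replicate 1, and 176 to 185 under the other settings on all 10 arrays (184 of 184 with the filter on low genes). The sign of none of the 186 changed. It changed in genes near 0: Cdkn2a (0.004 with quantile normalization, −0.091 to 0.077 without 1 array), Eed (−0.074 with the mean of its probe sets), Ezh2 (−0.058 with median centring, −0.176 to 0.191 without 1 array, −0.067 without Ezh2 null replicate 2), Sparc (−0.214 to 0.14 without 1 array) and Vim (−0.158 to 0.045 without 1 array). The number of genes differing from day 32 was 1572 with no replicate block and 1584 with quantile normalization. The cause of these shifts was not tested.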

Other observations

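Receptors were among the called genes that belonged to no list, and the genes of this paragraph were chosen after their values were seen. Il13ra1, a chain of the interleukin 13 receptor, read 8.67 and 9.16 in Ezh2 null cells and 6.71 and 6.22 in control cells (2.45 ± 0.24, limma, adjusted p = 0.00491). Il1r1, the interleukin 1 receptor, read 8.50 and 9.04 in Ezh2 null cells and 6.72 and 6.77 in control cells (2.03 ± 0.25). Both rose in all 4 fits without an array. Pth1r, the parathyroid hormone receptor known from cartilage and bone, rose by 1.61 ± 0.18, with 7.94 and 8.06 in Ezh2 null cells and 6.12 and 6.66 in control cells, and Gfra1, a receptor of the neurotrophic factor GDNF, by 1.45 ± 0.19. Met, the hepatocyte growth factor receptor, read 6.48 and 7.71 in Ezh2 null cells and 5.11 and 4.89 in control cells (2.10 ± 0.39), a call lost without either control array (adjusted p up to 0.128).

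Further called genes of no list, also chosen after their values were seen, were Map1b, Kcnip3, Msi1 and Gnao1. Map1b, a microtubule-associated protein of growing axons, read 7.59 and 8.70 in Ezh2 null cells and 5.80 and 5.75 in control cells (2.37 ± 0.27), and Kcnip3, a calcium sensor that binds potassium channels, read 9.93 and 10.20 in Ezh2 null cells and 7.25 and 7.67 in control cells (2.61 ± 0.17, limma, adjusted p = 0.00143). Msi1, an RNA-binding protein of neural progenitors, rose by 1.54 ± 0.17 and Gnao1, a G protein subunit of neurons, by 1.68 ± 0.23. Gnao1 lost its call without Ezh2 null replicate 2 (adjusted p = 0.0836).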
